A study of Rattus norvegicus with 86 samples.

Results

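The ion channel genes described here are the 44 genes of the expression table whose identifiers the supplementary tables of the study pair with a symbol starting *Kcn*, *Scn*, *Cacn*, *Hcn*, *Clcn*, *Clic*, *Trpc*, *Trpm*, *Trpv*, *Ano*, *Ryr*, *Itpr* or *Asic*. They are 44 of 17250 genes measured in the prelimbic cortex (PL), a medial prefrontal area, of 80 Heterogeneous Stock (HS) rats, an outbred population derived from several inbred strains. The choice used gene names only, and no *Hcn* or *Asic* gene was among the 3292 genes named in the shortened copy of those tables used here (19.1% of the expression table). The members encode 41 channel subunits or channel-associated subunits, and 3 carry a channel's name without being a channel subunit (*Itprid2*, *Itpripl1* and *Trpc4ap*). The supplementary tables list genes with an eQTL, so the members are not a sample of all channel genes: 20 came from a list over brain regions and 26 from a list of eQTL genes found in just 1 region, 2 of them in both. Of the 26, 3 (*Kcnh3*, *Kcnn3* and *Trpv6*) were listed for PL and 12 for the lateral habenula. Genotypes were not analysed here.

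The rats had received no drug and no behavioral test and shared cages, and tissue of both hemispheres was pooled within a rat. The labels give 40 males and 40 females in rat batches 2 (3 female, 11 male), 3 (13 female, 10 male), 4 (15 female, 11 male), 5 (1 female) and 6 (8 of each sex), and give no age. What a rat batch stands for (arrival, dissection or sequencing) is not stated, so the term is used only as the label has it. Each rat gave 1 library, so a p-value measures the spread between rats. The depth recovered from the values ranged from 10174405 to 32643825 reads (median 18143783). A level is the deposited log2 value of the adjusted read count plus 1, and is not divided by gene length, so levels are compared between rats and never between genes. In dissected tissue, fewer cells of a type and less RNA per cell cannot be told apart.

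Ion channels are membrane proteins that open in response to voltage, ligands, calcium or stretch and let selected ions pass. Many are complexes of pore-forming α subunits, which hold the ion path, and auxiliary subunits, which set the gating, trafficking or calcium sensitivity of the pore. In cortical neurons, sodium channels start the action potential, potassium channels end it and set firing rate, calcium channels couple it to transmitter release, and ryanodine and inositol trisphosphate receptors release calcium from internal stores.

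The 250 bases before the annotated start were taken from RefSeq (GRCr8), in which 34 of the 44 members have an entry. This build differs from Rnor_6.0, the build in the submitters' notes, and the expression table does not locate start sites. Printed are the windows of *Kcnma1* and *Kcnmb4*, the pore and auxiliary subunit of 1 channel that moved in opposite directions below, of *Kcna3* and *Scn2a*, pore subunits that differed between batches, and of *Kcnj16*, the member with the smallest p for sex. Capitals mark the GC box GGGCGG or its reverse complement CCGCCC.
Kcnma1: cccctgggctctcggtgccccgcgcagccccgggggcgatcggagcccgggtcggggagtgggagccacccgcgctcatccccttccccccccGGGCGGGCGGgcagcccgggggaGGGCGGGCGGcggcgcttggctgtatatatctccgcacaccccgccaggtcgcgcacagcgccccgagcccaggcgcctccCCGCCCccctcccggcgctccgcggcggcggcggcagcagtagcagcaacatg
Kcnmb4: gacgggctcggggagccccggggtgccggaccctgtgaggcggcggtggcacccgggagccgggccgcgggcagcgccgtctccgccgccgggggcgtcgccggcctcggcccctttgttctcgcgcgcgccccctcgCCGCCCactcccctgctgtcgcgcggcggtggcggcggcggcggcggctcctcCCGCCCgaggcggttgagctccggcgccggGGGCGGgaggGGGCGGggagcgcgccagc
Kcna3: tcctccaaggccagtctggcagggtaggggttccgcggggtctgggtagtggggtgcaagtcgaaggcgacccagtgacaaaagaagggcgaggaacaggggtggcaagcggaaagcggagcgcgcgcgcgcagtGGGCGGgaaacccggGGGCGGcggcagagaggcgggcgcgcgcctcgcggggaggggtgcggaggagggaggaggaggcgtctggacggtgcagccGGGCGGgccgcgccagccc
Scn2a: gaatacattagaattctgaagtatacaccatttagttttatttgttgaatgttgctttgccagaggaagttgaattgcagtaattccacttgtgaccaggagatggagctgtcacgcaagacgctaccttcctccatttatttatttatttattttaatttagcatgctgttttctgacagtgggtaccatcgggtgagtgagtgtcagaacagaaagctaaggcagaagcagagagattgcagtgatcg
Kcnj16: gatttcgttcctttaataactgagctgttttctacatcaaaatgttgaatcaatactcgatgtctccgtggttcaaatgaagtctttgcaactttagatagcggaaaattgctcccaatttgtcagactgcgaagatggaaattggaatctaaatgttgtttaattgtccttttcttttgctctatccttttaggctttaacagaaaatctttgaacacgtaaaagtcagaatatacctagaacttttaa
The windows lie at chr15:351675-351924 (plus strand), chr7:54005102-54005351 (minus strand), chr2:197320074-197320323 (plus strand), chr3:70710706-70710955 (plus strand) and chr10:96517074-96517323 (plus strand). The GC box occurred 5 times in the *Kcnma1* window, 4 times in that of *Kcnmb4* and 3 times in that of *Kcna3*, counting overlapping matches on both strands, and in neither of the other windows. Of all 33469 RefSeq promoter windows of this length, 30.5% held it. The number of CG dinucleotides was 33 in *Kcnma1*, 44 in *Kcnmb4*, 29 in *Kcna3*, 4 in *Scn2a* and 6 in *Kcnj16*, against a median of 5 over all windows. The motif TATAAA or its reverse complement TTTATA was in none of the 5 windows and in 12.9% of all windows. Among members that differed between batches (below) and have an entry, the GC box was in at least 1 window of 9 of 14 that were higher in batches 4 and 6 and of 6 of 8 that were lower. These counts take a member with any matching window, whereas the 30.5% counts single windows, so they cannot be set against each other. No link of the GC box to batch was tested. The *Kcnma1* window ends in the bases ATG, so its annotated start may lie inside the true transcript. A match is a sequence feature only, and no binding was measured.

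Most members were well expressed. Reads of 40 members were found in every rat, and *Kcnk5* was at 0 in 11 rats, *Scnn1a* in 5 and *Ano5* in 3. A mean level of at least 5 was reached by 35 members (79.5%, against 75.5% of all genes). The sodium channel α subunit *Scn2a* (ENSRNOG00000005018) ranged from 6912 to 11914 adjusted counts over the 80 rats with a median of 9436.5, and the store-release receptor *Itpr1* (ENSRNOG00000007104) ranged from 9415 to 15488 with a median of 11927.5. At the other end, the tandem-pore potassium channel *Kcnk5* (ENSRNOG00000047005) ranged from 0 to 10 adjusted counts with a median of 3.0. Values of such genes move by whole reads.

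After sex and batch were removed, the median residual SD of the members was 0.20 log2 units against 0.23 over all genes, and 0.17 against 0.18 among genes with a mean of at least 5. No test was made of these medians. The narrowest spread was that of *Trpc4ap* (SD 0.10), which binds TRP channels and a ubiquitin ligase. The widest were *Scnn1a*, an epithelial sodium channel subunit (0.95), *Kcnk5* (0.94), *Ano5*, an anoctamin (0.89) and *Clic3*, an intracellular chloride channel protein (0.86). These 4 had median adjusted counts of at most 14.5, that of *Clic3*. Rat batch accounted for a median of 20.1% of the variance between rats in members and 16.9% over all genes, and for 31.4% and 21.7% among genes with a mean of at least 5. The highest share was that of *Kcnmb4* (66.4%), followed by *Kcna3* (58.3%), and the lowest that of *Kcnk5* (1.62%).

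**Figure D1:**
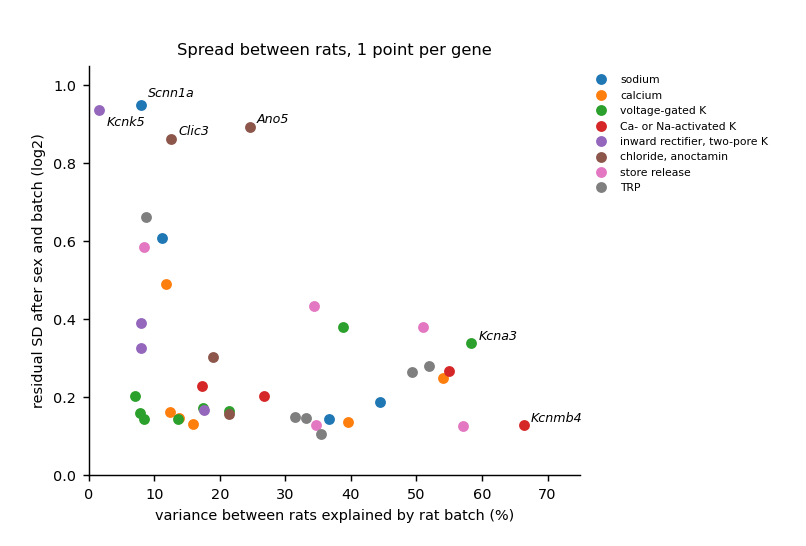
Residual SD of the log2 level after sex and rat batch (vertical axis) against the percentage of variance between 80 rats explained by rat batch (horizontal axis), 1 point for each of 41 members, coloured by class. The 4 widest members had residual SDs of 0.86 or more with at most 24.6% of variance by batch, and *Kcnmb4* (66.4%) and *Kcna3* (58.3%) stand farthest to the right.

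The first comparison asked which channel genes differed between rat batches. In limma's F-test of the batch terms, adjusted for sex, 29 of 44 members had a Benjamini-Hochberg adjusted p under 0.05, where 59.4% of all genes did. To give a direction, batches 4 and 6 were set against batches 2 and 3, a division known from earlier results of these data. The contrast therefore describes a known split and is no independent test of it. Its p-values measure the spread between rats, not that between batches. By this limma contrast 31 of 44 members passed, where 55.4% of all genes did. Of these, 18 members were higher in batches 4 and 6 (28.8% of all genes) and 13 were lower (26.6%). The median difference was 0.10 log2 units over the members and 0.01 over all genes, and the median size without sign was 0.20 and 0.16. The share of members that passed was 70.5%, and among those with a mean of at least 5 it was 27 of 35, where 65.9% of such genes passed. Whether members passed more often than other genes was not tested. No member, and 0% of all genes, had batch sides that did not overlap.

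**Figure D2:**
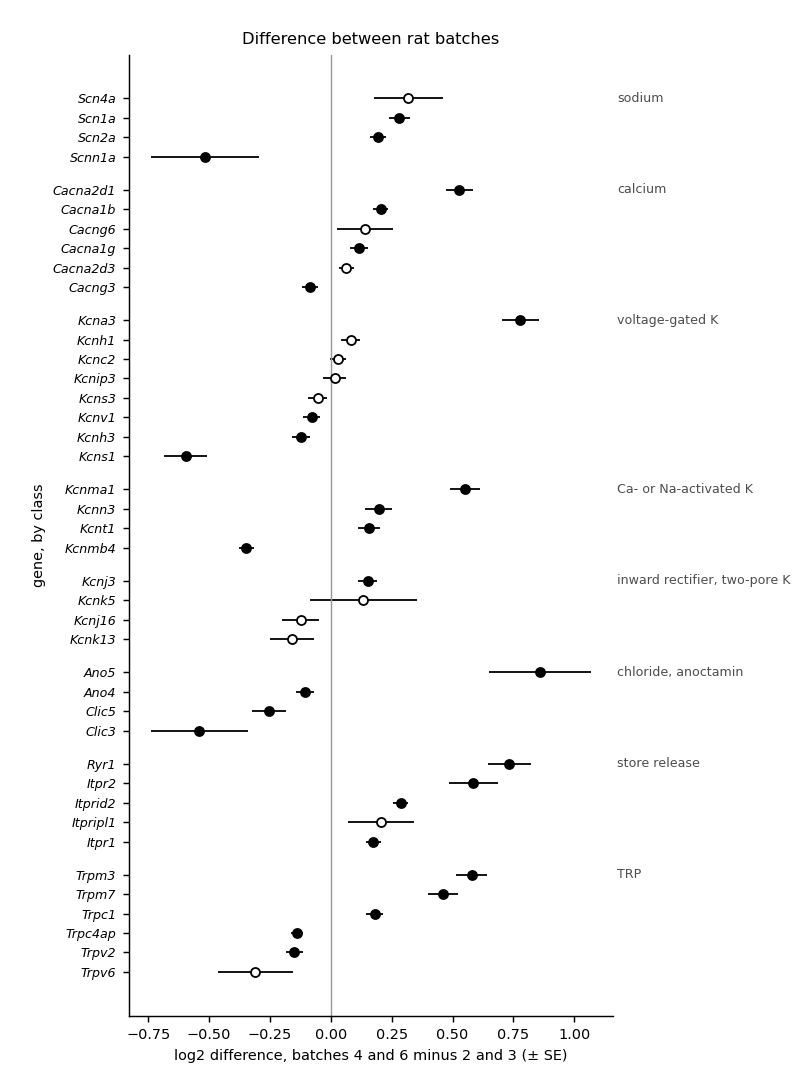
Difference in log2 level between batches 4 and 6 and batches 2 and 3 for 41 members, grouped by class, from the limma fit over 80 rats. Points are estimates, bars ± 1 SE, and filled points had an adjusted p under 0.05. The pores *Kcnma1* (0.55), *Scn1a* (0.28) and *Scn2a* (0.19) lie to the right of 0, and *Kcnmb4* (-0.35), the auxiliary partner of *Kcnma1*, to the left.

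Among the calcium- or sodium-activated potassium channels, all 4 members passed, and the pore and auxiliary subunit of the large-conductance (BK) channel differed in opposite directions. *Kcnma1* (ENSRNOG00000005985), the BK pore, had in the 14 rats of batch 2 a lowest, median and highest level of 9.07, 9.75 and 10.47, and in the 23 rats of batch 3 of 9.39, 9.82 and 10.47. In batch 4 (26 rats) the same values were 10.14, 10.46 and 10.71, and in batch 6 (16 rats) 9.90, 10.27 and 10.62. The groups overlapped, but 22 of the 37 rats of batches 2 and 3 were below every rat of batches 4 and 6, and 14 of these 42 were above every rat of batches 2 and 3. *Kcnma1* was 1.47-fold higher in batches 4 and 6 (log2 difference 0.55, SE 0.06, limma adjusted p = 2.66e-12). *Kcnmb4* (ENSRNOG00000054458), the neuronal β subunit that changes BK gating and calcium sensitivity, went the other way. Its lowest, median and highest levels were 10.76, 10.95 and 11.18 in batch 2, 10.69, 11.05 and 11.30 in batch 3, 10.50, 10.65 and 10.87 in batch 4, and 10.38, 10.61 and 10.86 in batch 6. The highest rat of batches 4 and 6 stood below 28 of the 37 rats of batches 2 and 3. *Kcnmb4* fell by 0.35 on the log2 scale in batches 4 and 6 (SE 0.03, adjusted p = 1.76e-16), the smallest p of any member. The small-conductance channel *Kcnn3* (0.20, adjusted p = 0.00135) and the sodium-activated channel *Kcnt1* (0.16, adjusted p = 0.00297) were also higher by the contrast. For *Kcnt1* the medians were 10.73, 10.54, 10.71 and 10.90 in batches 2, 3, 4 and 6, so batch 4 was not above batch 2. Batch 4 minus batch 3 did not pass for *Kcnt1* (limma adjusted p = 0.0725).

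Neuronal sodium channel pores were higher in batches 4 and 6. *Scn1a* (ENSRNOG00000053122), a pore subunit abundant in inhibitory neurons, had medians of 11.19 and 10.95 in batches 2 and 3 (range 10.61 to 11.57) and of 11.30 and 11.38 in batches 4 and 6 (range 10.90 to 11.71). *Scn2a*, the pore subunit of excitatory axons, had medians of 13.12 and 13.03 (range 12.76 to 13.49) against 13.34 and 13.22 (range 13.03 to 13.54). Ranges overlapped widely for both genes, and the differences were 0.28 (SE 0.04, adjusted p = 4.55e-08) for *Scn1a* and 0.19 (SE 0.03, adjusted p = 5.58e-07) for *Scn2a*. The epithelial subunit *Scnn1a* was lower by the contrast (-0.52, adjusted p = 0.0397) at a median of 5.5 adjusted counts. It did not pass the F-test of the batch terms (adjusted p = 0.225), nor the contrast in males alone (0.0682) or females alone (0.577). The skeletal muscle channel *Scn4a* did not pass the contrast (0.32, adjusted p = 0.0518).

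Within each rat, the level of *Kcnmb4* was subtracted from that of *Kcnma1*, a measure chosen after the batch values had been seen. It compares rats and says nothing of subunit ratios. The medians were -1.22 and -1.25 in batches 2 and 3, and -0.20 and -0.34 in batches 4 and 6. Of the 42 rats of batches 4 and 6, 27 were above every rat of batches 2 and 3. The mean difference between the sides was 0.89 log2 units in all rats, 0.77 in males and 1.04 in females. Since both genes had been seen to differ in these directions, no test of this measure is given.

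**Figure D3:**
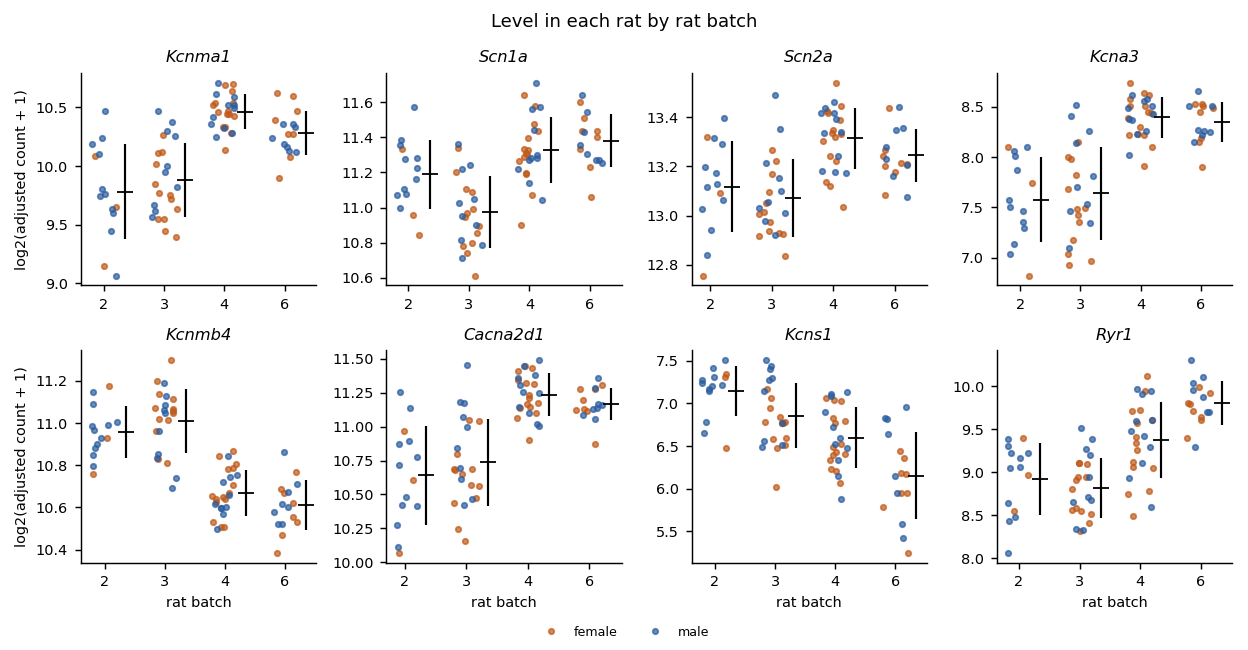
Log2 level of 8 members in each rat by rat batch (batch 5, with 1 rat, is not drawn), with females in orange and males in blue. Black marks are the mean ± SD of a batch. *Kcnma1*, *Scn1a*, *Scn2a*, *Kcna3* and *Cacna2d1* were higher in batches 4 and 6, *Kcnmb4* and *Kcns1* lower, and *Ryr1* was highest in batch 6, with a median of 9.80.

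Of the voltage-gated potassium genes, 1 was higher, 3 were lower and 4 did not pass. *Kcna3* (ENSRNOG00000062002), a Shaker-type pore also known from microglia and T cells, had medians of 7.53 in batches 2 and 3 alike and of 8.43 and 8.36 in batches 4 and 6. Levels ran from 6.82 to 8.52 on the first side and from 7.90 to 8.74 on the second, and 26 of 37 rats of batches 2 and 3 lay below all rats of the other side. This was a 1.72-fold difference (log2 0.78, SE 0.08, adjusted p = 5.01e-14). *Kcns1* (ENSRNOG00000013681), an electrically silent subunit that modifies other potassium channels, had medians of 7.23, 6.78, 6.52 and 6.16 in batches 2, 3, 4 and 6. It fell by 0.60 (SE 0.09, adjusted p = 1.44e-08) and was 1 of the 3 members that also differed between batches 6 and 4 (-0.46, adjusted p = 0.0108). *Kcnh3* (-0.12, adjusted p = 0.00422), an ether-a-go-go family pore, and the silent subunit *Kcnv1* (-0.08, adjusted p = 0.0368) were lower. *Kcnc2*, the fast delayed rectifier of fast-spiking interneurons (0.03, adjusted p = 0.457), its silent partner *Kcns3* (-0.05, adjusted p = 0.22), *Kcnh1* (0.08, adjusted p = 0.072) and the calcium sensor *Kcnip3* (0.02, adjusted p = 0.798) did not pass.

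Calcium channel genes were higher in 3 of 6 cases. The auxiliary α2δ subunit *Cacna2d1* (ENSRNOG00000033531), the binding site of gabapentin, had medians of 10.66 and 10.68 in batches 2 and 3 and of 11.24 and 11.15 in batches 4 and 6. Its rats of batches 2 and 3 spread from 10.07 to 11.46 and those of batches 4 and 6 from 10.87 to 11.49, with 26 of the 37 below all of the latter. The difference was 0.53 (SE 0.06, adjusted p = 1.06e-12), the same direction as that of the pores that passed. The N-type pore *Cacna1b* (0.20, SE 0.03, adjusted p = 4.28e-08), which drives transmitter release, and the T-type pore *Cacna1g* (0.11, adjusted p = 0.00697) were higher. *Cacna1g* did not pass the F-test of the batch terms (adjusted p = 0.0593). *Cacng3*, which also traffics AMPA receptors, was lower (-0.08, adjusted p = 0.0288). *Cacna2d3* (0.06, adjusted p = 0.072) and *Cacng6* (0.14, adjusted p = 0.315) did not pass.

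In the store-release class 4 of 5 genes were higher and none was lower. *Ryr1* (ENSRNOG00000020557), the ryanodine receptor of skeletal muscle that is also present in brain, had medians of 9.05, 8.80, 9.41 and 9.80 in batches 2, 3, 4 and 6. Levels ran from 8.06 to 9.51 in batches 2 and 3 and from 8.50 to 10.30 in batches 4 and 6, where 25 of 42 rats were above every rat of the first side. The side difference was 1.66-fold (log2 0.73, SE 0.09, adjusted p = 2.24e-11), and batch 6 was above batch 4 as well (0.42, adjusted p = 0.0191). The inositol trisphosphate receptors *Itpr1* (0.18, adjusted p = 5.73e-07) and *Itpr2* (0.59, adjusted p = 7.11e-07) were higher, as was *Itprid2* (0.29, SE 0.03, adjusted p = 3.22e-13), a receptor-interacting protein. For *Itprid2* (ENSRNOG00000005865) medians were 9.20 and 9.22 against 9.47 and 9.57. *Itpripl1* did not pass (0.21, adjusted p = 0.201).

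Among TRP channels, cation channels gated by lipids, temperature or stores, *Trpm3* (0.58, SE 0.06, adjusted p = 3.07e-12), *Trpm7* (0.46, adjusted p = 6.56e-10) and *Trpc1* (0.18, adjusted p = 7.21e-06) were higher. For *Trpm3* (ENSRNOG00000027770), a heat and neurosteroid receptor, medians were 8.36 and 8.47 in batches 2 and 3 and 9.01 in both others, with ranges of 7.55 to 9.11 and 8.61 to 9.44. *Trpv2* (-0.15, SE 0.03, adjusted p = 0.000131) and *Trpc4ap* (-0.14, SE 0.02, adjusted p = 1.09e-06) were lower. Their ranges overlapped, at 8.89 to 9.44 against 8.54 to 9.38 for *Trpv2* and 11.14 to 11.50 against 10.97 to 11.38 for *Trpc4ap*. The calcium-selective *Trpv6* did not pass (-0.31, adjusted p = 0.0789). In the chloride and anoctamin class 4 of 5 genes were lower, from *Ano4* (-0.10, adjusted p = 0.0133) to *Clic3* (-0.54, adjusted p = 0.0163). *Clic3* did not pass the F-test of the batch terms (adjusted p = 0.0549). *Ano5* was higher (0.86, adjusted p = 0.000275) at a median of 5.0 adjusted counts. Of the inward rectifier and tandem-pore channels, *Kcnj3*, a G protein-gated rectifier, passed (0.15, adjusted p = 0.000567), and *Kcnj16*, *Kcnk5* and *Kcnk13* did not, with adjusted p between 0.126 and 0.632.

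The division held within each sex for the leading members. With recovered depth as a covariate 31 members passed (54.7% of all genes). In males alone 26 members passed (41% of all genes) and in females alone 22 (35.2%). Batch 4 minus batch 3 gave 26 members (51.7%) and batch 6 minus batch 2 gave 23 (38.3%). Of the 31 members, 17 (54.8%) kept direction and call in every alternative tried, where 42.8% of all genes that passed did, and this gap was not tested. Among the 17 were *Kcnma1*, *Kcnmb4*, *Scn1a*, *Scn2a*, *Kcna3*, *Kcns1*, *Cacna2d1*, *Ryr1* and *Trpm3*. Fewer genes differed between batches of the same side. Since the sides were known from earlier results of these data, this is no separate test of the division. The SEs of these contrasts were also larger, for *Kcnma1* 0.09 (batch 3 minus 2) and 0.08 (batch 6 minus 4) against 0.06 between the sides. Between batches 3 and 2, 2 members passed (*Itpr2*, 0.47, adjusted p = 0.0473, and *Ano4*, -0.19, adjusted p = 0.0256), where 5.7% of all genes did. Between batches 6 and 4 there were 3 (*Kcns1*, *Ryr1* and *Kcnt1*), where 6.23% of all genes did.

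Cell type markers were set against the same division. Of 46 listed markers, 12 had an identifier that could be matched. Of these, 9 passed the same contrast, 4 higher and 5 lower, where 55.4% of all genes passed. Whether markers passed more often than other genes was not tested. The vesicular GABA transporter *Slc32a1* of inhibitory neurons (-0.42), *Mal* (-0.53) and *Opalin* (-0.24) of oligodendrocytes, *C1qa* of microglia (-0.19) and *Stmn2* of neurons (-0.08) were lower. *P2ry12* of microglia (0.27), *Rgs5* of pericytes (0.27), *Dcn* of meninges (0.26) and *Vwf* of endothelium (0.11) were higher. *Vip*, also of inhibitory neurons (-0.01, limma adjusted p = 0.899), did not pass. Nor did *Aldh1l1* of astrocytes (-0.08, adjusted p = 0.187) or *Hbb* of blood (-0.34, adjusted p = 0.088). None of the 12 was at 0 in any rat, and their summed adjusted counts ranged from 15189 to 21927 in batches 2 and 3 (median 17924) and from 14591 to 18282 in batches 4 and 6 (median 16383). The part of cell makeup in the channel differences was not tested. Of a second list of 24 ligand-gated and other channel, pump or auxiliary genes, 7 were higher and 9 lower, such as *P2rx7* (0.53, adjusted p = 2.96e-10) and *Fxyd7*, a regulator of the sodium pump (-0.41, adjusted p = 2.26e-12).

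The second comparison was between the sexes, with rat batch as a factor. No member passed, with limma adjusted p-values of 0.16 or more, where 0.365% of all genes passed (63 of 17250). At an unadjusted p under 0.05 there were 3 of 44 members, and 1349 genes of the table (7.82%). *Kcnj16* (ENSRNOG00000004713), an inward rectifier best known from astrocytes, had a lowest, median and highest level of 6.19, 6.67 and 7.53 in 40 males and of 6.32, 6.91 and 7.67 in 40 females. The ranges overlapped almost whole, and males were lower by a fitted -0.25 (SE 0.08, p = 0.00165, adjusted p = 0.16). Within batches 2, 3, 4 and 6 the fitted male minus female value was -0.53, -0.33, -0.13 and -0.15, negative in each, with only 3 females in batch 2. *Kcns1* ranged from 5.43 to 7.51 (median 6.86) in males and from 5.25 to 7.34 (median 6.50) in females, a difference of 0.20 (SE 0.09, adjusted p = 0.553). *Kcnj3* ranged from 9.18 to 9.94 in males and from 8.92 to 9.88 in females (0.09, SE 0.04, adjusted p = 0.579). *Cacna2d1* (0.11, adjusted p = 0.657) and *Trpm3* (0.12, adjusted p = 0.694) had the next smallest p. The median size of the sex difference was 0.06 log2 units over members and 0.04 over all genes. No listed marker and none of the 24 other channel genes passed.

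**Figure D4:**
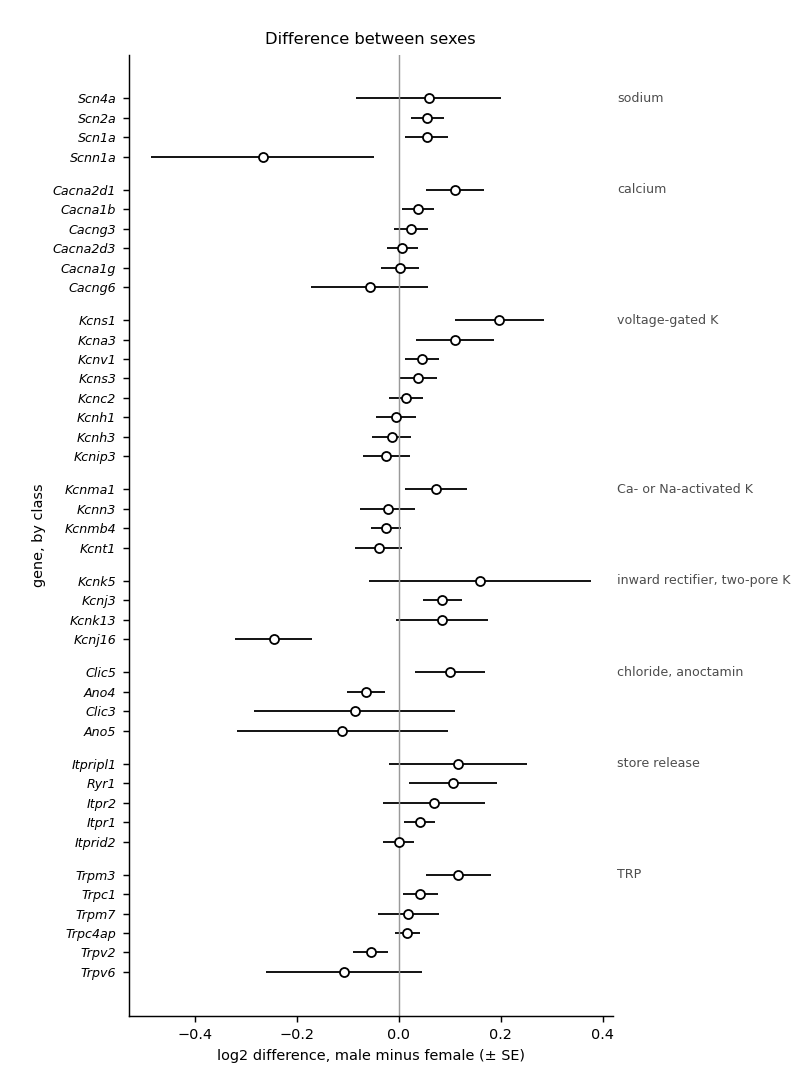
Difference in log2 level between 40 males and 40 females for 41 members, grouped by class, from the limma fit with rat batch as a factor. Points are estimates and bars ± 1 SE, and all points are open because no member had an adjusted p under 0.05. *Kcnj16* (-0.25) lies farthest from 0 in units of its SE.

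Whether a sex difference itself differed between batches was tested by limma's interaction F-test over batches 2, 3, 4 and 6. No gene of the table passed (0% called). The smallest unadjusted p of a member was 0.0105, for *Cacna2d3*, with an adjusted p of 1. At an unadjusted p under 0.05 there was 1 of 44 members, and 410 genes of the table (2.38%).

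Each member was also searched for a split of the rats into a high and a low group, by fitting a single normal distribution and a mixture of 2 to the values after sex was removed. The rule asked for a fall in the Bayesian information criterion of over 10, for component means at least 1 log2 unit and over 4 component SDs apart, and for a smaller group of 10% of rats or more. None of the 44 members was called, where 2.45% of all genes were (422), and no alternative called a member. *Kcna3* had the largest fall in the criterion among members, 18.5, with 28.9% of rats in the smaller group. Its gap of 0.96 log2 units and 3.86 component SDs missed the rule on both measures. After batch was removed as well, its fall was -8.60, a rise. *Kcnk13*, a halothane-inhibited tandem-pore channel, had a fall of 17.7 and a gap of 1.63 log2 units and 5.54 component SDs. It missed the rule only by its smaller group of 2.53% of rats, and after batch was removed its fall was 15.9.

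The third comparison asked whether channel partners varied together between rats of the same sex and batch. For 9 pairs of textbook partners, residuals on sex and batch were correlated over 80 rats, with two-sided permutation tests adjusted over the 9 pairs. Of these pairs 5 are described here, and all 5 had an adjusted p under 0.05. For *Kcnma1* and *Kcnmb4*, Pearson's r was -0.64 and Spearman's rho -0.63 (permutation adjusted p = 2.25e-05 and 3e-05). The sign was the same in each of the 4 larger batches, with r of -0.76, -0.70, -0.51 and -0.52 in batches 2, 3, 4 and 6. Without the 2 rats farthest from the *Kcnma1* median r was -0.63. As a description, 0.128% of the other 17248 genes had a lower r with *Kcnma1* than *Kcnmb4* had. The same share, taken with the first gene of a pair, was 99.2% for *Scn1a* and *Scn2a* and 94.7% for *Cacna1b* and *Cacna2d1*. It was 92.6% for *Kcnc2* and *Scn1a* and 86.0% for *Kcnc2* and *Kcns3*, so many other genes had a higher r with *Kcnc2*.

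The sodium channel pores varied together, *Scn1a* and *Scn2a* with r = 0.69 and rho = 0.71 (permutation adjusted p = 2.25e-05 and 3e-05). This held in batches 2, 3, 4 and 6 (r of 0.83, 0.84, 0.48 and 0.65) and without the 2 farthest rats (0.69).

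The calcium channel pair went together. *Cacna1b* and *Cacna2d1* had r = 0.54 and rho = 0.47 (permutation adjusted p = 2.25e-05 and 9e-05), but within batch 4 r was 0.09, against 0.75, 0.57 and 0.56 in batches 2, 3 and 6. Without the 2 farthest rats r was 0.49. *Kcnc2* and *Scn1a*, both typical of fast-spiking interneurons, had r = 0.41 and rho = 0.40 (permutation adjusted p = 0.00021 and 0.000342). Batch 4 again differed, with r of -0.25 against 0.59, 0.72 and 0.63 in batches 2, 3 and 6, so the relation did not hold in the largest batch. Without the 2 farthest rats r was 0.34. *Kcnc2* and its silent partner *Kcns3* had r = 0.29 and rho = 0.32 (permutation adjusted p = 0.00964 and 0.00504), with batch values from 0.10 in batch 3 to 0.48 in batch 4 (0.36 and 0.22 in batches 2 and 6) and 0.31 without the 2 farthest rats.

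With the first principal component of all genes (14.1% of variance) also removed, *Kcnma1* and *Kcnmb4* had r = -0.24 (permutation adjusted p = 0.0692), *Cacna1b* and *Cacna2d1* r = 0.17 (permutation adjusted p = 0.158) and *Kcnc2* and *Scn1a* r = 0.21 (permutation adjusted p = 0.0973), so none of the 3 pairs passed. *Scn1a* and *Scn2a* (r = 0.46) and *Kcnc2* and *Kcns3* (r = 0.44) still passed, with permutation adjusted p of 0.00018 and 0.00039. What this component stands for was not tested.

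**Figure D5:**
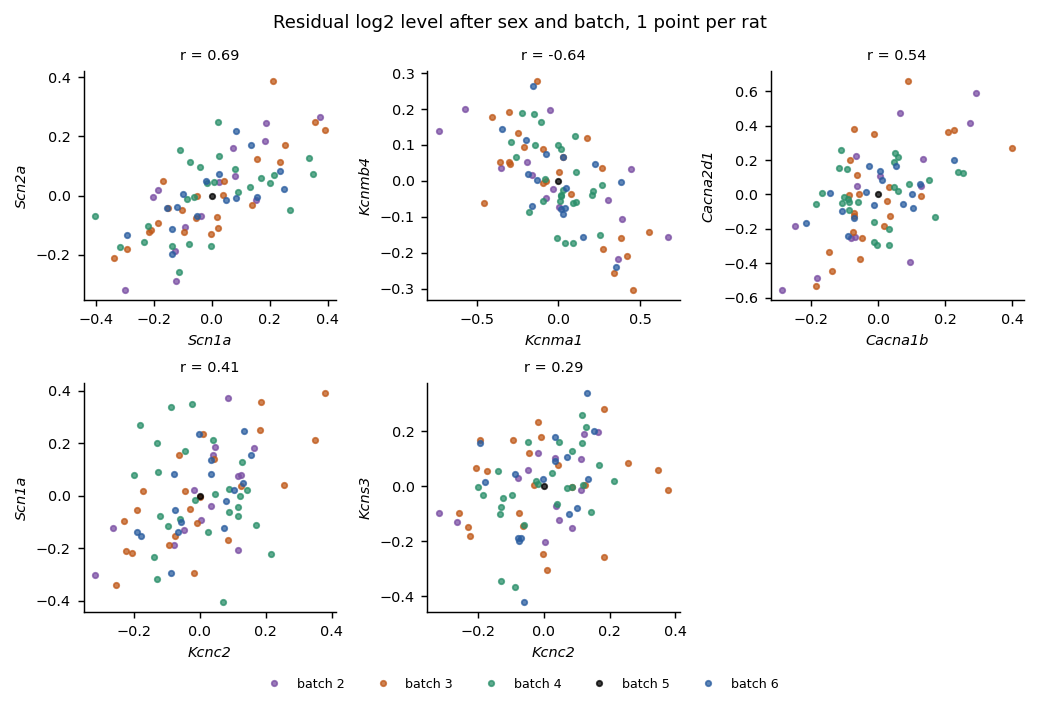
Residual log2 levels after sex and rat batch for 5 pairs of partner genes, 1 point per rat (80 rats), coloured by rat batch, with Pearson's r above each panel. The cloud slopes down for *Kcnmb4* against *Kcnma1* (-0.64), and up for *Scn2a* against *Scn1a* (0.69).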

How the data were processed

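RNA-Seq levels in PL of 80 HS rats, 1 library each, were analysed. The submitters' processing notes name cutadapt, RSEM, DESeq2 and Rnor_6.0. After trimming, the authors estimated gene counts with the Ensembl transcriptome of the rat, scaled libraries by their upper quartile, removed some samples and low genes, and deposited log2 values with a pseudocount of 1. Of 86 labelled samples, 6 were removed by them and were not analysed here. Undoing the logarithm gave whole numbers in 100% of values (tolerance 0.1%). These are scaled counts, so count models were not used. Depth was recovered by finding the scaling factor that explains which whole numbers a library skips or repeats, and 76 of the 80 libraries gave a clear factor.

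Tests used limma 3.58.1 in R 4.3.3 (lmFit, eBayes with a variance trend) over 17250 genes, Benjamini-Hochberg adjusted, threshold 0.05. Scripts were checked on data with known answers. Pairs used 100000 permutations in scipy 1.17.1 and numpy 2.4.6 (Python 3.11.15, pandas 2.3.3). Alternatives covered covariates, transformation, pseudocount, a filter on low genes, single batches and each sex.

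The members, lists and tests were chosen with earlier results of these data known. Full values were given for the 5 smallest p for sex, the 5 smallest batch p in each direction, the 5 widest residual SDs and the partner pairs, except that the results of 3 members are not reported here (they stay in all fits and counts). Further values for *Ryr1* and the within-rat difference were chosen after values were seen. Symbols come from a shortened copy of the study's supplementary tables, and genes without one in that copy are not named. Genes overlapping another gene could not be checked, since no annotation of the build was used here.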

Additional observations from a re-analysis of the deposited data

How the results depend on the processing

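No paired analysis was possible because the labels carry no replicate numbers. No member passed for sex in the 12 alternatives tried, and the 5 members with the smallest p kept their direction in all of them except *Trpm3* within batch 4 (-0.0037). The number of all genes that passed for sex was 38 without rat batch as a covariate, and 6, 10, 10 and 9 within batches 2, 3, 4 and 6, where there were fewer rats. For the batch side contrast, 29 of the 31 members that passed kept their direction in all 11 alternatives. *Kcnv1* turned to 0.011 in females alone and *Ano4* to 0.015 for batch 4 minus batch 3, neither past the threshold. Calls were lost in 34 of 337 refits, these 2 included, and the cause was not tested. Females alone gave 6068 genes that passed, with fewer rats. The mixture rule on residuals on sex and batch called 262 genes and no member.

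With the first principal component also removed, r was -0.24 for *Kcnma1* and *Kcnmb4*, 0.17 for *Cacna1b* and *Cacna2d1* and 0.21 for *Kcnc2* and *Scn1a*, none past the threshold (the cause was not tested). No other alternative that kept all batches together ended the call of any of the 5 pairs described. Within batch 4, the unadjusted permutation p was 0.664 for *Cacna1b* and *Cacna2d1* and 0.215 for *Kcnc2* and *Scn1a*. For *Kcnc2* and *Kcns3* it was 0.205, 0.66 and 0.423 in batches 2, 3 and 6. *Kcnma1* with *Kcnmb4* and *Scn1a* with *Scn2a* kept an unadjusted p under 0.05 in each of these batches and in batch 4. Members with few reads (*Kcnk5*, *Scnn1a*, *Ano5*, *Clic3*) rest on a median of at most 14.5 adjusted counts, so small differences in them were not detectable at this depth.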
